A study of Mus musculus with 20 samples.

Results

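The comparison described here is the step from day 2 to day 4 of fat cell differentiation in 3T3-L1 cells that carry a scrambled hairpin. 3T3-L1 cells are mouse fibroblast-like preadipocytes that turn into fat cells filled with lipid droplets when given a hormone cocktail. The 4 libraries were chosen by their labels, scrambled hairpin at day 4 (2 libraries) and at day 2 (2 libraries), out of 20 in the series. In the other libraries of the series Tcf7l2, a transcription factor of the Wnt pathway, was silenced by a second hairpin, or cells were taken at days 0, 6 and 8. Both groups compared here carry the same scrambled SMARTvector lentiviral hairpin, and so neither is a wild-type line. The cells were infected at low passage and selected with puromycin as a heterogeneous population. They were used up to passage 8 and differentiated by a published procedure in which a thiazolidinedione (TZD), an agonist of PPARgamma, was not routinely added. Whether the 2 libraries of a day stem from separate cultures is not stated in the labels, and the p-values therefore cover the spread between libraries alone, which may be technical. Of 33581 genes in the deposited tables, 15896 had a mean normalised count of at least 10 at either day and were tested. That mean is taken over all libraries of a day, knockdown included. A gene with almost no reads in scrambled cells at day 2, such as Adrb3, Lep, Ankrd1 or Csf1r below, can enter through its day 4 level. The filter thus favours a call of such a gene as higher.

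Adipogenesis in this line is started by insulin, a glucocorticoid and an inhibitor of phosphodiesterases that raises cyclic AMP. These agents induce the early factors C/EBPbeta and C/EBPdelta, the cells divide, and C/EBPbeta then switches on PPARgamma and C/EBPalpha. PPARgamma and C/EBPalpha maintain each other and the genes for lipid storage, fatty acid uptake and adipokines.

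The 4 libraries held 29071003 and 31673355 reads at day 4, against 23274311 and 33973608 reads at day 2, and a read was seen in 19918 to 20656 genes. Levels are given as normalised reads, which are the reads of a gene divided by 1 scaling factor per library. Tcf7l2, the gene targeted in the other arm of the study, had 1077 and 1167 normalised reads at day 4, against 1156 and 1227 at day 2, in these scrambled libraries. In the knockdown libraries of the same days it had 368 and 349.9 at day 4, against 461 and 477 at day 2. All 4 scrambled libraries therefore lay above the 4 knockdown libraries, as their labels state. The 2 day 4 libraries of the scrambled arm stood further apart than the other pairs. The SD over genes of the log2 ratio of the 2 libraries was 0.715 at day 4, against 0.452 at day 2, and the knockdown pairs had 0.434 and 0.424 on those days. Of the genes tested, 1796 were more than 2-fold apart between the 2 day 4 libraries. The markers of mature adipocytes were higher in day 4 library 2 than in day 4 library 1 for 24 of 24 members tested, by a median of 1.85 on the log2 scale. At day 2 the median difference of library 2 over library 1 was 0.66 for these markers. Values are therefore given by library. Most counts of list members called are followed by the counts without day 4 library 1 and without day 4 library 2. Each such fit leaves 1 scrambled library at day 4 and takes its spread from the other groups. Its calls therefore hold no spread between the 2 day 4 libraries and are not comparable with those of the full test. The same holds for day 2 where a day 2 library is left out.

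Between day 2 and day 4 adipocyte genes were gained and several genes of the early hormonal response fell. Adipoq, Cfd, Fabp4, Cd36 and Gpd1 rose and lay above both day 2 libraries in both day 4 libraries, so the labelled cell type showed its defining markers. Wnt4, Prg4, Ecm1, Ly6a and Dusp1 fell. In all, 1213 of 15896 genes (7.63%) passed the test, limma on log2(normalised reads + 1) with Benjamini-Hochberg adjustment at 0.05. Of these, 626 (3.94%) were higher at day 4 and 587 (3.69%) were lower. The day 4 and day 2 libraries did not overlap for 7766 genes (48.9%), among them all 1213 that passed. A change of at least 2-fold was seen for 421 of the genes that rose and 171 of those that fell. The median change of all genes tested was 0.02 on the log2 scale, and the median SE was 0.206. The spread in this fit comes from all 8 libraries of days 2 and 4, knockdown included. With the 4 scrambled libraries alone 14 genes passed, and without day 2 library 1 or day 2 library 2 it was 50 and 77, without day 4 library 1 3252, and without day 4 library 2 1173. Of the 102 genes named here that were called, 10 and 16 were still called without day 2 library 1 or 2, and 99 and 83 without day 4 library 1 or 2. The 10 were Cdsn, Abcd2, Sult1a1 and Adamts5, which rose, and Prg4, Wnt4, Ecm1, Ly6a, Kif26b and Dusp1, which fell, and each of them was called whichever of the 8 libraries was left out. The calls of all other genes named here, adipocyte genes among them, ended without day 2 library 1. For the gene lists below, no list had more than 1 member called in a direction without day 2 library 1 or with the 4 scrambled libraries alone, and none more than 3 without day 2 library 2. A list with 1 member called in a direction out of about 20 is near the shares of all genes, and says nothing particular about that list.

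**Figure D1:**
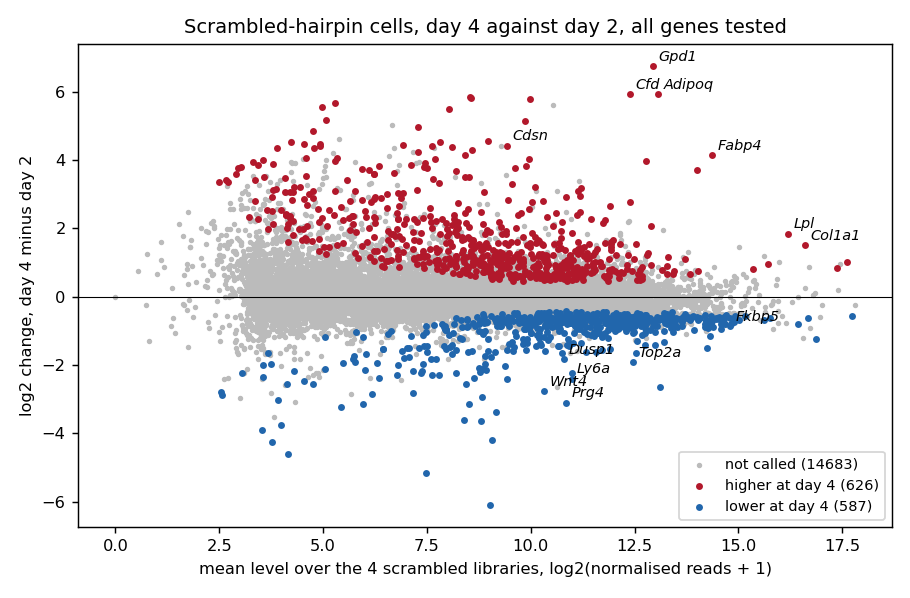
Change of every gene tested between day 4 and day 2 in scrambled cells (vertical axis, log2) against its mean level over the 4 scrambled libraries (horizontal axis, log2 of normalised reads + 1). The 626 genes that passed the test as higher at day 4 are red, the 587 lower ones are blue and the others are grey. The largest changes are upward, led by Gpd1, Cfd and Adipoq.

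The genes that rose most among those of at least median level were adipocyte genes. Gpd1 (ENSMUSG00000023019.6), which makes the glycerol backbone of triglycerides, had 2577 and 28751 normalised reads at day 4, against 61.8 and 101 at day 2. Adipoq (ENSMUSG00000022878.5), which encodes the adipokine adiponectin, had 7902 and 26145 at day 4, against 198 and 279.8 at day 2. Cfd (ENSMUSG00000061780.5), the complement protease adipsin, had 3999.6 and 17336 at day 4, against 75.4 and 243 at day 2. In each of the 3 genes both day 4 libraries lay far above both day 2 libraries, and day 4 library 2 was the higher. The log2 changes were 6.75 (SE 1.1, adjusted p = 0.0191) for Gpd1, 5.93 (SE 0.614, adjusted p = 0.00744) for Adipoq and 5.93 (SE 0.768, adjusted p = 0.0111) for Cfd. They were 8.49, 6.79 and 6.99 without day 4 library 1, and 5.01, 5.06 and 4.87 without day 4 library 2, all still called, while the adjusted p without day 2 library 1 was 0.127, 0.0684 and 0.0869. Fabp4, a fatty acid carrier of the cytosol, had 17065 and 64127 normalised reads at day 4, against 1530.0 and 2304 at day 2 (log2 change 4.14, adjusted p = 0.0151). Cd36, which takes up fatty acids at the cell surface, had 6018 and 20350.3 at day 4, against 497 and 1007 at day 2 (log2 change 3.97, adjusted p = 0.0206). Both genes were already well expressed at day 2, unlike Gpd1 or Adipoq. Cidec, which fuses lipid droplets, had 8018 and 54518 at day 4, against 1236 and 2104 at day 2, and its call (log2 change 3.70, adjusted p = 0.0486) ended without day 4 library 2 (adjusted p = 0.0629).

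Other leading genes are less closely tied to fat storage. Mrap, an accessory protein of the ACTH receptor, rose by 5.78 on the log2 scale, with 511 and 3464 normalised reads at day 4, against 11.1 and 47.3 at day 2. The adhesion molecule Mcam rose by 4.03, and Rarres2, which encodes the adipokine chemerin, by 3.76. Cdsn, an adhesion protein known from skin, had 1044 and 1595 normalised reads at day 4, against 66.7 and 52.5 at day 2, with similar levels in both libraries of a day. Its log2 change was 4.42 (SE 0.400, adjusted p = 0.00462). At day 0 Cdsn had been higher still, as given below with the 5 days. Cryab, a small heat shock protein, had 2003 and 740.4 normalised reads at day 4, against 159 and 93.8 at day 2 (log2 change 3.30). Of the 12 leading genes, Cryab was the one with the higher level in day 4 library 1.

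**Figure D2:**
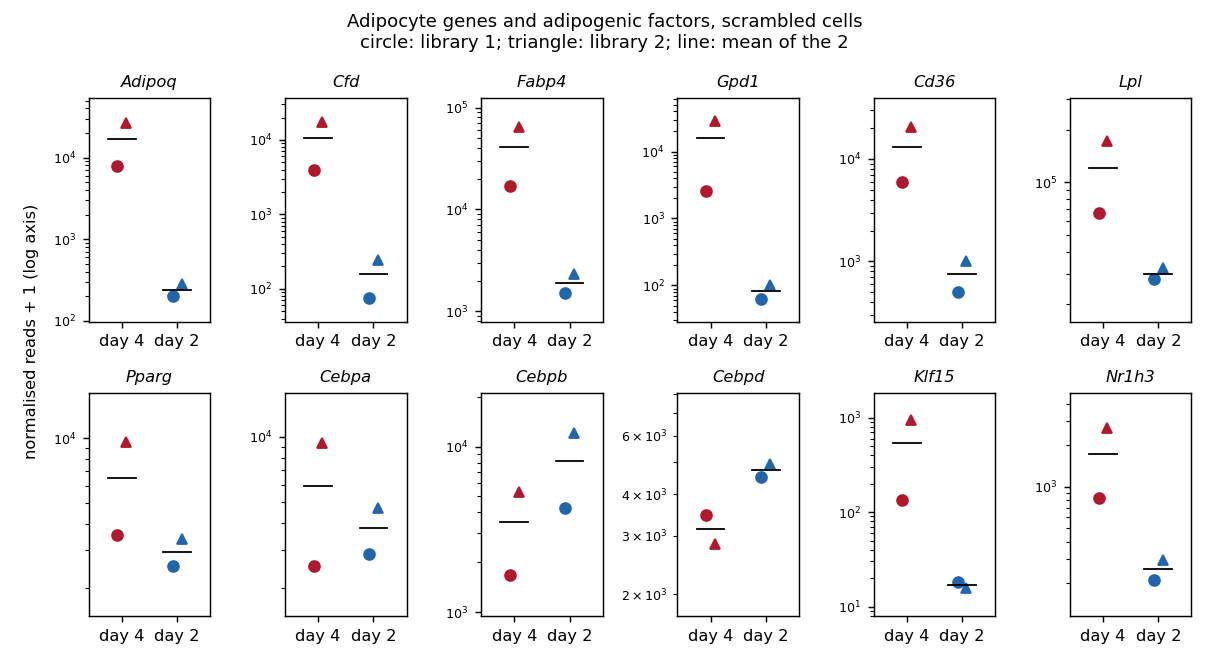
Normalised reads (+ 1, log axis) of 6 adipocyte genes (top) and 6 adipogenic transcription factors (bottom) in scrambled cells at day 4 (red) and day 2 (blue). Circles are library 1, triangles library 2 and lines the mean of the 2. The adipocyte genes do not overlap between days, while Cebpa and Cebpb do. Pparg, with 3519 and 9550.2 at day 4 and 2535 and 3381 at day 2, is well above day 2 in 1 library.

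Of the list of mature adipocyte markers, 12 of 24 tested rose and 0 fell, with a median log2 change of 3.44, against 0.02 for all genes. Lep, which encodes leptin, had 15.4 and 34.6 normalised reads at day 4, against 0 and 1.72 at day 2, and so stayed a low transcript although it was called (adjusted p = 0.0359, and 0.107 without day 4 library 2). Adrb3, a beta adrenergic receptor of fat cells, had 20.2 and 101 at day 4, against 0 and 0 at day 2 (adjusted p = 0.0211, and 0.0516 without day 4 library 2). Lgals12, a galectin of lipid droplets, rose by 5.84 and Plin1, which coats lipid droplets and gates lipolysis, by 2.65. Slc2a4, the insulin-responsive glucose transporter, had 219 and 2187 at day 4, against 17.3 and 57.7 at day 2, and did not pass (log2 change 4.40, adjusted p = 0.0887). The 2 day 4 libraries of Slc2a4 were far apart, and both lay above both day 2 libraries. The list had 22 members called higher without day 4 library 1, 10 without day 4 library 2, 0 without day 2 library 1 and 2 without day 2 library 2. The change from the day 2 mean had a median of 2.09 in day 4 library 1 and 4.34 in day 4 library 2, and 22 and 23 of the 24 members were above 0. In bulk RNA a larger share of adipocytes and more of these transcripts per adipocyte cannot be told apart, which holds for every list described here.

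Of the adipokines and secreted factors, 7 of 19 rose and 1 fell, with a median log2 change of 1.83. Apoe, which carries lipids between cells, had 427 and 737 normalised reads at day 4, against 84 and 122 at day 2 (log2 change 2.46, adjusted p = 0.0224, and 0.0514 without day 4 library 2). Angptl4, an inhibitor of lipoprotein lipase, was the member that fell, with 3852 and 4399.9 at day 4, against 8234 and 9792 at day 2 (log2 change -1.12, adjusted p = 0.0184). The list had 13 called higher and 2 lower without day 4 library 1, 5 and 2 without day 4 library 2, 0 and 0 without day 2 library 1, and 3 and 0 without day 2 library 2.

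Some of the enzymes that supply and store lipid rose. The lists share members, such as Gpd1 in triglyceride synthesis and in the mature adipocyte markers, so their counts are not independent of each other. In triglyceride synthesis 2 of 12 genes rose and 0 fell (median log2 change 1.02), and in lipid droplet proteins 2 of 11 and 0 (0.99). In fatty acid uptake and activation it was 4 of 11 and 0 (0.95), and in de novo lipogenesis 3 of 16 and 0 (0.78). The last list had 5 of 16 negative log2 changes. Its median change from day 2 was 0.12 in day 4 library 1 and 1.05 in day 4 library 2, with 9 and 13 members above 0. Fasn, Scd1 and Acly of this list lay below both day 2 libraries in day 4 library 1 and above both in library 2. Fasn had 12312 and 35340 normalised reads at day 4, against 15977 and 22482 at day 2. Lpl, the lipase that releases fatty acids from lipoproteins, was among the most abundant transcripts, with 67168 and 173563 normalised reads at day 4, against 27928 and 32147 at day 2 (log2 change 1.85, adjusted p = 0.0398). Slc27a1, a fatty acid transporter, had 2299.9 and 2624 at day 4, against 781 and 1056 at day 2. The 2 libraries of a day were close to each other for Slc27a1, and its change of 1.43 had an SE of 0.163 (adjusted p = 0.00860). The desaturases of long fatty acids, Fads2 and Fads1, rose by 1.01 (adjusted p = 0.0124) and 0.87 (adjusted p = 0.0227). Their day 4 means were still below those of day 0, as given below with the 5 days. Fads2 had 1569 and 1924 normalised reads at day 4, against 828 and 899.6 at day 2. Acacb, an acetyl-CoA carboxylase, rose by 1.19 (adjusted p = 0.0366, and 0.0525 without day 4 library 2) and Agpat3, an acyltransferase, by 1.03. Thrsp, a nuclear protein linked to lipogenesis, had 232 and 5611 at day 4, against 12.4 and 40.5 at day 2, and did not pass (log2 change 5.60, adjusted p = 0.0665). Pck1, which feeds glycerol synthesis, had 5.78 and 64.6 at day 4, against 0 and 0.861 at day 2 (adjusted p = 0.0653). Plin4 and Plin2, which also coat lipid droplets, missed the threshold with log2 changes of 1.16 (adjusted p = 0.0507) and 0.95 (adjusted p = 0.0988). In these 4 lists 8, 7, 8 and 10 members were called higher without day 4 library 1, and 2, 2, 4 and 2 without day 4 library 2, with 1 lower in each of the last 2 lists.

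Among the adipogenic transcription factors, 2 of 19 rose and 2 fell, with a median log2 change of 0.01. Klf15, a Krüppel-like factor of mature fat cells, had 133 and 939 normalised reads at day 4, against 17.3 and 14.6 at day 2 (log2 change 4.39, SE 0.887, adjusted p = 0.0321). Nr1h3, the oxysterol receptor LXRalpha, had 824 and 2667 at day 4, against 209 and 293 at day 2 (log2 change 2.58, adjusted p = 0.0323). Klf5, an early factor of the cascade, had 774 and 412 at day 4, against 1268 and 1389 at day 2 (log2 change -1.23, adjusted p = 0.0474), a call that ended without day 4 library 2 (adjusted p = 0.0539). Rxra, the partner of PPARgamma on DNA, fell by 0.62 on the log2 scale (adjusted p = 0.0328). The 4 factors at the centre of the cascade did not pass this test, which does not show that they held their level. Pparg had 3519 and 9550.2 normalised reads at day 4, against 2535 and 3381 at day 2 (log2 change 0.99, SE 0.425, adjusted p = 0.206). Day 4 library 1 lay just above the day 2 libraries, and without it the log2 change of Pparg was 1.71. Cebpa had 2546 and 9370.1 at day 4, against 2889 and 4699 at day 2, so that day 4 library 1 was below both day 2 libraries and day 4 library 2 above both. Its log2 change was 0.41 (adjusted p = 0.729), and -0.53 without day 4 library 2. Cebpb had 1672 and 5294 at day 4, against 4262 and 12048 at day 2 (log2 change -1.27, adjusted p = 0.374), with library 2 far above library 1 on both days. Cebpd had 3452 and 2832 at day 4, against 4509.6 and 4915 at day 2 (log2 change -0.59, adjusted p = 0.0648). Leaving out day 4 library 1 gave 4 factors called higher and 3 lower, and leaving out day 4 library 2 gave 2 and 1.

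The genes of mitochondrial fuel use did not pass, and their median level was higher in day 4 library 2 than in library 1. In mitochondrial fatty acid oxidation 0 of 17 members were called in either direction (median log2 change 0.45), in pyruvate entry and the TCA cycle 0 of 24 (0.45), and in oxidative phosphorylation 0 of 20 (0.42). The median change from day 2 was 0.01, -0.02 and 0.01 in day 4 library 1, and 0.94, 0.95 and 0.92 in day 4 library 2. At an unadjusted p under 0.05 the limma test had 4, 3 and 1 members of these lists, and limma voom on the recovered reads also called 0, so the lack of calls does not show that these genes held their level. The 3 lists had 13, 20 and 15 members called higher without day 4 library 1, with 1 lower in the first, and 0 without day 4 library 2. Mdh1, a malate dehydrogenase of the cytosol, had 6009 and 13696 normalised reads at day 4, against 3903 and 4177 at day 2 (log2 change 1.17, adjusted p = 0.0845). Cs, citrate synthase, had 8105 and 16326 at day 4, against 6871 and 7062 at day 2 (log2 change 0.72, adjusted p = 0.185). Both day 4 libraries of each gene lay above both day 2 libraries, and day 4 library 2 was the higher.

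Glycolysis lay on both sides of its day 2 level in the 2 day 4 libraries. Of 15 members 0 passed the limma test and 0 passed voom, and 1 had an unadjusted p under 0.05 (median log2 change 0.24). In day 4 library 1 the median change from day 2 was -0.55, with 2 of 15 members above 0. In day 4 library 2 it was 0.99, with 14 of 15 above 0. Tpi1, triosephosphate isomerase, had 9293 and 27077 normalised reads at day 4, against 9497 and 10427 at day 2, and Pfkp, a phosphofructokinase, had 2599.6 and 3631 at day 4, against 4345 and 3851 at day 2. With day 4 library 1 left out 11 members were called higher, and with day 4 library 2 left out 3 were called lower, so the direction of the list turned with the library left out. The chaperones of the endoplasmic reticulum, which fold secreted proteins, had 0 of 17 called by limma or by voom and 5 at an unadjusted p under 0.05, although all 17 log2 changes were positive (median 0.59). Hsp90b1, which folds secreted and membrane proteins, had 16411 and 22063 at day 4, against 10869 and 13079 at day 2 (adjusted p = 0.0990). The list had 10 called higher without day 4 library 1 and 0 without day 4 library 2.

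Each of 3 smaller lists of lipid and amino acid metabolism had 2 genes that passed. Abcd2, which imports very long chain fatty acids into peroxisomes, had 454 and 462 normalised reads at day 4, against 122 and 125 at day 2, with almost no gap between libraries (log2 change 1.88, SE 0.151, adjusted p = 0.00300). Acox3, a peroxisomal oxidase, rose by 1.14, and these were the 2 of 16 genes of peroxisomal lipid metabolism that passed (0 lower; median 0.46). In branched-chain amino acid breakdown, a fuel route of fat cells, 2 of 17 rose and 0 fell (median 0.88), which were Acadsb (0.77) and Pccb (1.25, adjusted p = 0.0420, and 0.0503 without day 4 library 2). Bcat2, the transaminase that starts this route, had 3758 and 13930.1 at day 4, against 1395 and 1815 at day 2 (log2 change 2.18, adjusted p = 0.0642). In cholesterol synthesis and uptake 2 of 23 rose and 0 fell (median 0.77). Insig1, which restrains sterol synthesis, had 3507 and 8382 at day 4, against 978 and 1362 at day 2 (log2 change 2.23, adjusted p = 0.0245). Ebp, a sterol isomerase, had 1015 and 1119.8 at day 4, against 594 and 569 at day 2 (log2 change 0.87, adjusted p = 0.0138). These 3 lists had 10, 13 and 13 called higher without day 4 library 1, and 2, 1 and 2 without day 4 library 2.

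**Figure D3:**
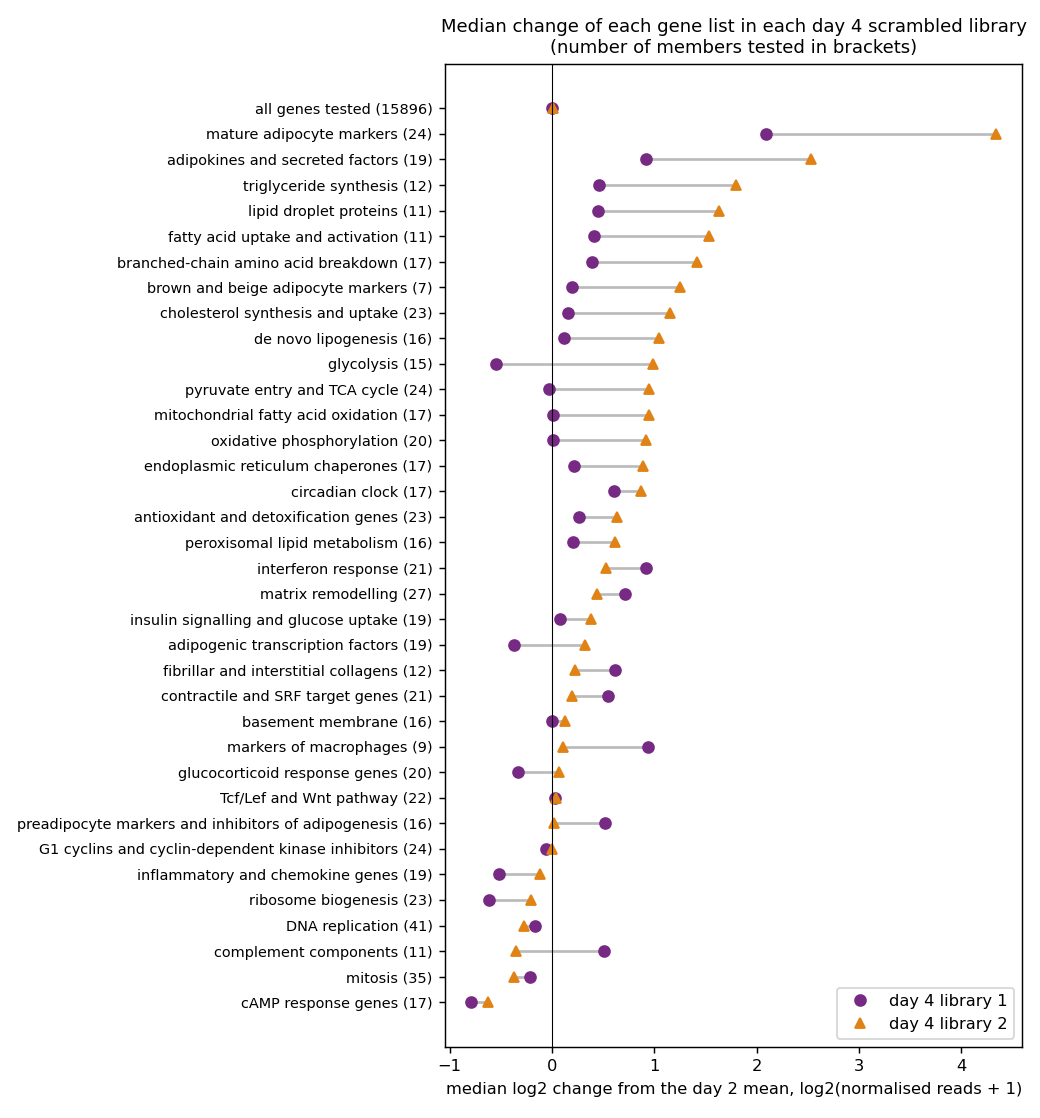
Median log2 change of each gene list from the day 2 mean in day 4 library 1 (circles) and in day 4 library 2 (triangles) of scrambled cells, with the number of members tested in brackets. The lipid and fuel lists lie further right in library 2, glycolysis falls on both sides of 0 at -0.55 and 0.99, and the cAMP response genes lie left of 0 in both libraries at -0.79 and -0.62.

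Among genes of the early hormonal response, the cAMP list had a negative median change in both day 4 libraries. Of the cAMP response genes, which cyclic AMP induces through the factor CREB, 8 of 17 fell and 0 rose, with a median log2 change of -0.68. Dusp1 (ENSMUSG00000024190.6), a phosphatase that switches off MAP kinases, had 793 and 760.5 normalised reads at day 4, against 2931 and 2596 at day 2 (log2 change -1.83, SE 0.108, adjusted p = 0.00182). Nr4a1, an orphan nuclear receptor of the immediate early class, had 993 and 1359 at day 4, against 3243 and 2756 at day 2 (log2 change -1.36, adjusted p = 0.0106). Junb, a subunit of AP-1, had 647 and 699 at day 4, against 1762 and 1653 at day 2 (log2 change -1.34, adjusted p = 0.00462). In these 3 genes the gap between days was far larger than that between libraries. Pde4b, which degrades cyclic AMP, fell by 1.64 on the log2 scale, and the phosphodiesterase Pde10a fell by 1.46. Rgs2, which restrains G proteins, fell by 1.42 with 3802 and 5044 normalised reads at day 4, against 13122 and 10496 at day 2, Nr4a3 by 2.10 from a low level, and the kinase Sik1 by 0.61 (adjusted p = 0.0424, and 0.0753 without day 4 library 2). Leaving out either day 4 library gave 8 members called lower, with 2 called higher in the absence of library 1, while 1 was called lower without day 2 library 1 and 2 without day 2 library 2.

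The promoters of the genes of this list were searched for the element that CREB binds. The windows run from 250 bases before to 50 bases after the start in RefSeq (GRCm38.p6), and 14 of 18 list genes had at least 1, which gave 19 windows. The core TGACG of the cyclic AMP response element, or its reverse complement, was in 13 of 19 windows (68.4%), against 20.8% of all 32851 windows. It was in 39.5% of the windows of the DNA replication list, 38.9% of the cholesterol list and 33.3% of the mitosis list. For the mature adipocyte markers it was 18.2%. A share above that of all windows was thus not particular to the cAMP list. The full element TGACGTCA, which holds the core on both strands, was in 2 of 19 (10.5%), against 1.79% of all windows. For the 8 genes that fell, 7 of them with a promoter, the core was in 6 of 11 windows (54.5%), against 68.4% for the whole list. The windows without it were all of Pde4b and Pde10a, which have several windows each, and Pde4b holds the core in another window. The share of windows is thus not a share of genes. These motifs were chosen after the changes were known, and a match is a description of the sequence and not of binding. The promoters of Dusp1, Nr4a1 and Nr4a3 are shown because they hold the most matches among the genes that fell, 3, 4 and 4 cores, and capitals mark the core on either strand. They lie at chr17:26508423-26508722 (minus strand), chr15:101266596-101266895 (plus strand) and chr4:48045055-48045354 (plus strand).
Dusp1: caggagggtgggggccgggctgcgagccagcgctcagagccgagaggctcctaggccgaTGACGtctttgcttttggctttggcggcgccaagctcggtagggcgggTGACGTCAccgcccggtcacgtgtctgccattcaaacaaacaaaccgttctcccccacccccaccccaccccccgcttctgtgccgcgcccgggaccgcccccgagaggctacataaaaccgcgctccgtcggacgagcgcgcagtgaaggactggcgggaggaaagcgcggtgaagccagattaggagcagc
Nr4a1: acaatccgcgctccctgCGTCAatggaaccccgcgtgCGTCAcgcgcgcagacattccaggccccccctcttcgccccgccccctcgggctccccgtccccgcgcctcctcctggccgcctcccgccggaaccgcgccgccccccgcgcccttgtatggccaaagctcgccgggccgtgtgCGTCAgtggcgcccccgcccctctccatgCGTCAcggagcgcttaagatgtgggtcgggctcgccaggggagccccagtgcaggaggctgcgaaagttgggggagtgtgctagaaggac
Nr4a3: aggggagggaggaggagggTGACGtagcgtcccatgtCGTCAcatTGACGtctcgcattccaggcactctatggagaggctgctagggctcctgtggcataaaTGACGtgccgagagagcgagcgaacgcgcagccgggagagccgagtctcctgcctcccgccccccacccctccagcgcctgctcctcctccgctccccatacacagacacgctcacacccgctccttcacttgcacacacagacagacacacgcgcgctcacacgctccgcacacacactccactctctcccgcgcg
In Dusp1 the full element stands as 1 run of capitals, while Nr4a1 and Nr4a3 hold single cores.

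Of the glucocorticoid response genes, 3 of 20 fell and 2 rose, with a median log2 change of -0.12. The median change from day 2 was -0.34 in day 4 library 1 and 0.07 in day 4 library 2. Fkbp5, a chaperone of the glucocorticoid receptor and a classical target of it, had 19924 and 20408 normalised reads at day 4, against 35021 and 38224 at day 2, so that it fell while remaining abundant (log2 change -0.86, SE 0.117, adjusted p = 0.0124). Angptl4 and Dusp1 are also on this list, and their falls are given above. Sult1a1, a sulfotransferase, went the other way with 1666 and 2337 at day 4, against 211 and 213 at day 2 (log2 change 3.21, SE 0.257, adjusted p = 0.00304), and Sgk1, a kinase, rose by 0.67 (adjusted p = 0.0346, and 0.0756 without day 4 library 2). This list had 5 called higher and 5 lower without day 4 library 1, and 1 and 5 without day 4 library 2.

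**Figure D4:**
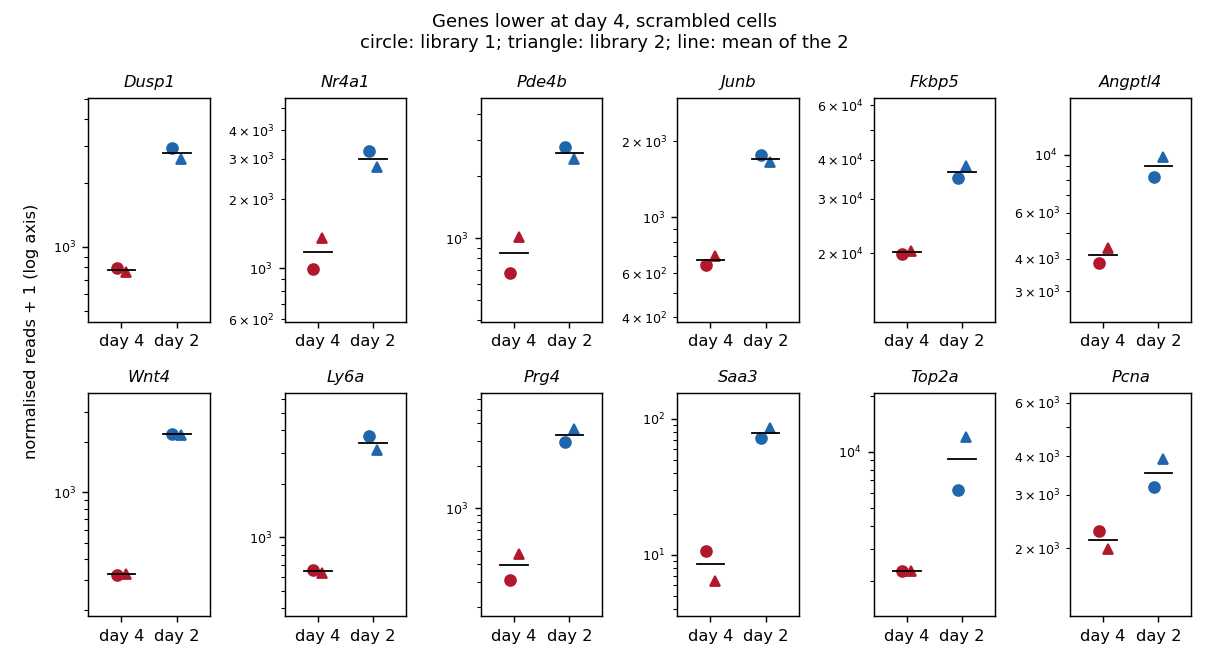
Normalised reads (+ 1, log axis) of 12 genes that passed the test as lower at day 4 in scrambled cells, at day 4 (red) and day 2 (blue). Circles are library 1, triangles library 2 and lines the mean of the 2. Both day 4 libraries lie below both day 2 libraries in every panel, and in Dusp1, Wnt4 and Ly6a the 2 libraries of a day are close together.

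The genes that fell most, among those of at least median level, included secreted and surface proteins. Wnt4 (ENSMUSG00000036856.4), a secreted Wnt ligand, had 324 and 328 normalised reads at day 4, against 2232 and 2204 at day 2, the tightest pairs among the leading genes (log2 change -2.76, SE 0.117, adjusted p = 0.000697). Prg4, the lubricating proteoglycan of joints, had 310.3 and 473 at day 4, against 2934 and 3665 at day 2 (log2 change -3.09, SE 0.228, adjusted p = 0.00230). Ecm1, a secreted matrix glycoprotein, had 2718 and 2113 at day 4, against 12193 and 18233 at day 2 (log2 change -2.64, adjusted p = 0.00618). None of these values overlapped between days. Ly6a, the surface antigen Sca-1 of mesenchymal progenitors, had 657 and 630.4 at day 4, against 3737 and 3086 at day 2 (log2 change -2.40, SE 0.199, adjusted p = 0.00342). Il13ra1, a cytokine receptor chain, fell by 2.41 on the log2 scale, Kif26b, a kinesin family protein, by 2.24, and Foxc2, a forkhead factor of mesenchymal tissues, by 2.02. Ptgs1, a cyclooxygenase, fell by 1.63 and Vdr, the vitamin D receptor, by 1.61. Both of these were lower in day 4 library 2, with 1755 and 897 normalised reads of Vdr at day 4, against 4271 and 3446 at day 2.

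Among the preadipocyte markers and inhibitors of adipogenesis, 1 of 16 rose and 1 fell, with a median log2 change of 0.29. The member that fell was Ly6a, and the member that rose was Pdgfrb, a growth factor receptor of mesenchymal cells, with 6308 and 4933 normalised reads at day 4, against 2358 and 1952 at day 2 (log2 change 1.38, adjusted p = 0.0103). Dlk1, the preadipocyte surface protein Pref-1, had 36915 and 22923 at day 4, against 22249 and 23691 at day 2 (log2 change 0.34, adjusted p = 0.483). Day 4 library 1 of Dlk1 lay above both day 2 libraries and day 4 library 2 between them, and without day 4 library 1 the log2 change was -0.002. Ddit3, the stress factor CHOP, had 1027 and 4089 at day 4, against 512 and 424 at day 2 (log2 change 2.13, adjusted p = 0.0767). Without library 1 of day 4 the list had 3 called higher and 3 lower, and without library 2 of day 4 it had 3 and 1.

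In DNA replication 0 of 41 genes rose and 1 fell (median log2 change -0.23), and in mitosis 0 of 35 rose and 1 fell (-0.30). These counts are near the 3.69% of all genes tested that were called lower. Top2a, the topoisomerase that untangles chromosomes, had 2277 and 2267 normalised reads at day 4, against 6211 and 11965 at day 2 (log2 change -1.92, SE 0.411, adjusted p = 0.0372). Pcna, the sliding clamp of replication, had 2273 and 1988 at day 4, against 3169 and 3912 at day 2 (log2 change -0.73, adjusted p = 0.0328). Both calls ended without day 4 library 2 (adjusted p = 0.0750 and 0.0711). Mki67, which marks cycling cells, had 2453 and 1452 at day 4, against 2060.1 and 2357 at day 2, with day 4 library 1 above both day 2 libraries and day 4 library 2 below both (log2 change -0.22, adjusted p = 0.683). Ccnd2, a cyclin of the first gap phase, rose by 1.12 (adjusted p = 0.0174) and was the 1 of 24 G1 cyclins and cyclin-dependent kinase inhibitors that passed (median 0.03). This list had 4 called higher and 1 lower without day 4 library 1, and 1 and 1 without day 4 library 2. The replication and mitosis lists had 3 and 1 called lower without day 4 library 1, and 0 and 0 without day 4 library 2. Ribosome biogenesis had 1 of 23 called lower, Nop10 (log2 change -0.48, adjusted p = 0.0478, and 0.0735 without day 4 library 2), although all 23 log2 changes were negative (median -0.43). It had 1 called lower without day 4 library 1 and 5 without day 4 library 2.

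Promoter windows of the cell cycle lists were described in the same way. The letters TTCCCGC, bound by E2F factors, were in 15 of 38 windows of the DNA replication list (39.5%), against 4.60% of all windows. The letters TTTGAA of the cell cycle homology region were in 22 of 30 windows of the mitosis list (73.3%), against 17.9% of all windows, and CCAAT was in 23 of 30 (76.7%), against 37.4%. In the cholesterol list CCAAT was in 14 of 18 windows (77.8%), and the sterol response letters TCACCCCAC were in 0 of 18, against 0.551% of all windows. Each was searched on both strands.

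Several matrix and contractile genes rose, and Col1a1, Timp4 and Acta2 among them had the higher level in day 4 library 1. Of the fibrillar and interstitial collagens 3 of 12 rose and 0 fell (median log2 change 0.50). Col1a1, a chain of type I collagen, had 175737 and 118803 normalised reads at day 4, against 53685 and 48562 at day 2 (log2 change 1.50, SE 0.207, adjusted p = 0.0133). Col6a3 and Col3a1 rose by 1.03 and 0.84. Col1a2, the partner chain of Col1a1, had 297496 and 176105 at day 4, against 132770.0 and 106197 at day 2 and did not pass (log2 change 0.95, adjusted p = 0.0804). Basement membrane genes went both ways, with 4 of 16 higher and 2 lower (median -0.002). Nid1, which links laminin to collagen IV, rose by 0.80, Col15a1 by 1.66, Sparc by 0.94 and Lama2 by 1.58 (adjusted p = 0.0476, and 0.0600 without day 4 library 1). Lama5, a laminin alpha chain, had 155 and 66.4 at day 4, against 659.9 and 941 at day 2 (log2 change -2.94, adjusted p = 0.0168), and Lamc1 fell by 0.66 (adjusted p = 0.0456; 0.0891 without day 4 library 2). In matrix remodelling 3 of 27 rose and 0 fell (median 0.49). Adamts5, which cleaves proteoglycans, had 3841 and 4249.8 at day 4, against 1368 and 1394 at day 2 (log2 change 1.55, SE 0.108, adjusted p = 0.00230). Timp4, an inhibitor of matrix metalloproteinases, had 589 and 499 at day 4, against 27.2 and 62 at day 2 (log2 change 3.69, adjusted p = 0.0108). Mmp19 rose by 0.79.

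Of the contractile and SRF target genes, 4 of 21 rose and 0 fell (median 0.42). Acta2, smooth muscle actin, had 2405 and 1331 normalised reads at day 4, against 634 and 593 at day 2 (log2 change 1.54, adjusted p = 0.0182). Myl9, a myosin light chain, rose by 2.28, and Cnn2, a calponin, by 1.29. Ankrd1 had 7.71 and 10.9 at day 4, against 0 and 0 at day 2, a call that ended without day 4 library 2 (adjusted p = 0.0803). With day 4 library 1 left out the collagens had 4 called higher and 2 lower, basement membrane 3 and 3, matrix remodelling 5 and 4, and contractile genes 4 and 2. With day 4 library 2 left out the counts were 7 and 0, 4 and 1, 10 and 2, and 6 and 0.

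In the Tcf/Lef and Wnt pathway, the pathway of the gene silenced in the other arm, 1 of 22 rose and 1 fell (median 0.05), near the 3.94% and 3.69% of all genes tested. Fzd7, a Wnt receptor, had 1235 and 1069.7 normalised reads at day 4, against 2160.2 and 2229.6 at day 2 (log2 change -0.93, SE 0.116, adjusted p = 0.0103), and Wisp1, a secreted matricellular target, rose by 0.72. Wnt4 itself, described above, was not a member of this list. Of the inflammatory and chemokine genes 0 of 19 rose and 3 fell (median -0.55). Saa3, an acute phase protein, had 9.64 and 5.46 at day 4, against 70.4 and 84.4 at day 2 (log2 change -3.24, adjusted p = 0.00744). Nfkbia, the inhibitor of NF-kappaB, fell by 0.59 (adjusted p = 0.0339, and 0.0693 without day 4 library 2) and the chemokine Cx3cl1 by 1.54. The Wnt list had 1 called higher and 4 lower without day 4 library 1, and 2 and 1 without day 4 library 2. The inflammatory list had 1 and 4 without the first of these libraries, and 0 and 3 without the other.

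Levels over the 5 days place the step in its course, on a scale common to the 20 libraries that differs slightly from the one above. Adipoq had 28.8 and 4.18 normalised reads at day 0, 193 and 274 at day 2, 7722 and 25718 at day 4, 38619 and 64336 at day 6 and 23501 and 95447 at day 8. Gpd1 had 34 and 15 normalised reads at day 0, 60.2 and 98.8 at day 2, 2519 and 28281 at day 4, 23967 and 91011 at day 6 and 11884 and 108722 at day 8. On a log scale the largest step of both genes was thus the one between day 2 and day 4. Pparg had 859.9 and 816 normalised reads at day 0, 2469 and 3316 at day 2, 3439 and 9394 at day 4, 4407 and 10748 at day 6 and 2920.1 and 11449 at day 8, with library 2 the higher from day 2 onward. Wnt4 had 699 and 555 normalised reads at day 0, 2174 and 2162 at day 2, 316 and 323 at day 4, 249 and 149 at day 6 and 267 and 159 at day 8, a peak at day 2 alone. Dusp1 had 433 and 169 normalised reads at day 0, 2855 and 2547 at day 2, 775 and 748 at day 4, 276 and 469 at day 6 and 532 and 326 at day 8, and Fkbp5 had 2462 and 1973 normalised reads at day 0, 34111 and 37497 at day 2, 19471 and 20074 at day 4, 3066 and 2598 at day 6 and 2561 and 1514 at day 8. Both were highest at day 2, and Fkbp5 was still far above its day 0 level at day 4. Col1a1 had 103822 and 268343 normalised reads at day 0, 52289.8 and 47639 at day 2, 171746 and 116862 at day 4, 146966 and 84796 at day 6 and 132743 and 115190.0 at day 8, with its lowest level at day 2. Cdsn had 3412 and 3713 at day 0, 65.0 and 51.5 at day 2 and 1021 and 1569 at day 4. The mean of Cryab was 1256, 124 and 1343 on these days, that of Acta2 5754, 600 and 1830, and that of Pdgfrb 10491, 2106 and 5509. For Fads2 the means were 2005, 844 and 1713, and for Fads1 3948, 2008 and 3708. The rises of these genes thus followed a lower level at day 2 than at day 0. Among other genes that rose, Irs1, C1s, C1ra, Spp1, Ifit3, Tef, Gstm1 and Hmox1 also had day 4 means between those of day 2 and day 0. Others, such as Slc27a1 and Siglec1, were above their day 0 mean at day 4.

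**Figure D5:**
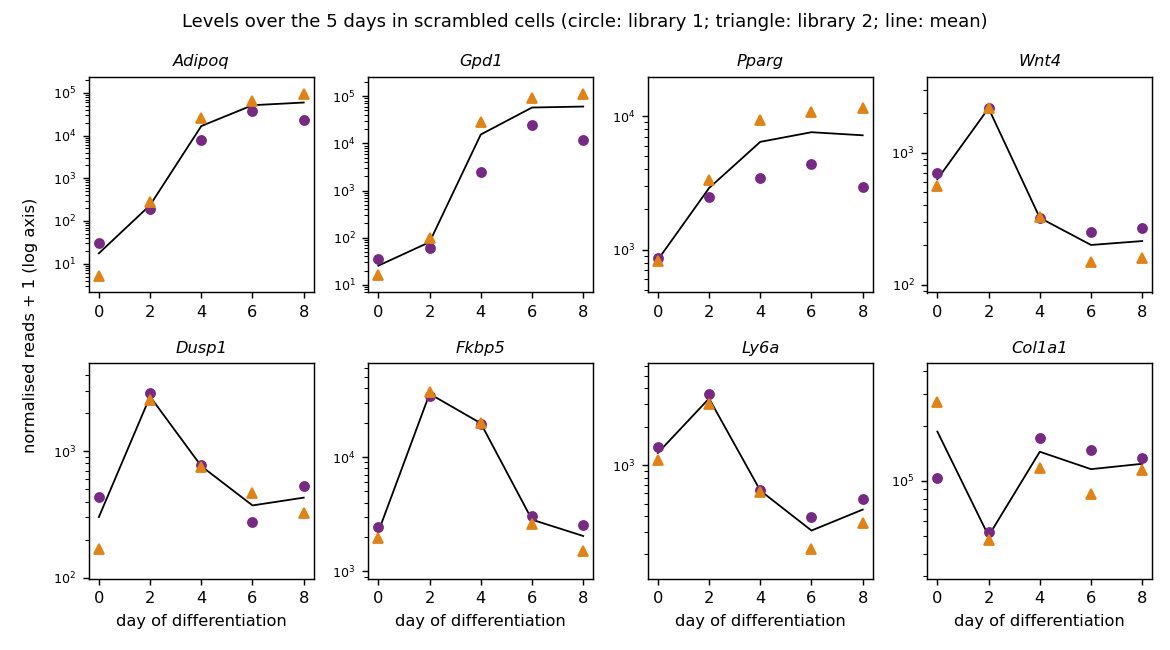
Normalised reads (+ 1, log axis) of 8 genes in scrambled cells at days 0, 2, 4, 6 and 8, scaled over the 20 libraries. Circles are library 1, triangles library 2 and the line joins the means. On this log axis Adipoq and Gpd1 climb most between day 2 and day 4, Wnt4, Dusp1, Fkbp5 and Ly6a peak at day 2, and Col1a1 is lowest at day 2.

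The same step in the knockdown arm asks whether it depends on the hairpin. In that arm 1102 genes passed (6.93%), 635 higher (3.99%) and 467 lower (2.94%). The change had the same sign in both arms for 12542 genes (78.9%) of all tested and for 1208 (99.6%) of those called in scrambled cells. Called with the same sign in both arms were 716 genes, which is 65.0% of the knockdown calls and 59.0% of the scrambled calls. Both changes use the same spread per gene in this fit, so the calls of the arms are not independent of each other. Of 15896 genes tested for the difference between the arms in the same fit, 282 had an unadjusted p under 0.05. The difference passed for 0 of them (limma, lowest adjusted p = 0.99996). Without scrambled day 4 library 1 it passed for 67 genes, 17 with a higher and 50 with a lower change in the knockdown arm. A difference that did not pass does not show that the arms act alike, since each rests on 2 libraries a day. The log2 change of Adipoq was 6.04 in the knockdown arm, against 5.93 in the scrambled arm, and that of Dusp1 was -2.13, against -1.83. Abcd2 had a log2 change of 0.56 in the knockdown arm, against 1.88 in the scrambled arm, and that difference did not pass. The median change of the mature adipocyte markers was 2.75 in the knockdown arm, against 3.44 in the scrambled arm, and that of glycolysis -0.37, against 0.24.

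The interferon response list had more members called in the knockdown arm. In the knockdown arm 17 of 21 members rose and 0 fell, with a median log2 change of 2.37. In the scrambled arm 1 of 21 rose and 0 fell, with a median of 0.79. Ifit3, an antiviral protein, was that member, with 77.1 and 41.8 normalised reads at day 4, against 8.65 and 9.47 at day 2 (log2 change 2.52, adjusted p = 0.0208). For no member did the difference between the arms pass, as stated above. In scrambled cells 3 members were called higher and 1 lower without day 4 library 1, and 5 and 0 without day 4 library 2.

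Markers of other cell types were summed over each list. The macrophage list summed to 1143 and 1687 normalised reads at day 4, against 742 and 791 at day 2, over 15 genes. The sum was thus higher in both day 4 libraries, and Emr1 and Tyrobp had 0 reads in all 4 libraries. Of the 9 tested members 6 had a positive log2 change and 3 a negative one. Itgam was lower in both day 4 libraries, with 363 and 368, against 544 and 545 at day 2. Fcgr1 was also lower, with 3.85 and 5.46, against 13.6 and 10.3. Most of the rise in the sum was that of Siglec1. Siglec1, a sialic acid receptor of macrophages, had 347 and 1112 normalised reads at day 4, against 26 and 37 at day 2 (log2 change 4.28, adjusted p = 0.0123), and Csf1r, the receptor of a macrophage growth factor, had 26 and 20 at day 4, against 1.24 and 3.44 at day 2. The call of Csf1r (adjusted p = 0.0334) ended without day 4 library 1 or 2 (adjusted p = 0.0502 and 0.0617). These were the 2 of 9 tested members that rose, against 1 without day 4 library 1 and 3 without day 4 library 2. The endothelial list summed to 616 and 473 at day 4, against 423 and 353 at day 2, with 0 of 3 called and Cldn5 at 0. The skeletal muscle list summed to 899 and 1132 at day 4, against 889.8 and 901 at day 2, with 6 members at 0 and Des, an intermediate filament, called higher (log2 change 2.17, adjusted p = 0.0423, and 0.0722 without day 4 library 2). The bone and cartilage list had 1 of 4 called, Spp1 (1.74), also without either day 4 library, and summed to 4055 and 2934 at day 4, against 2926 and 3363 at day 2. This was the largest of the 4 sums in each of the 4 libraries. Sox9 held much of it, with 2053 and 1963 at day 4, against 2499 and 2827 at day 2. Sox9 was thus lower in both day 4 libraries, and 2 of the 4 tested members had a negative log2 change. Acta1 likewise held much of the skeletal muscle sum and was lower at day 4, with 707 and 647, against 829 and 793 at day 2. The part of other cells in the changes above was not tested.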

How the data were processed

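RNA from 3T3-L1 cells was sequenced (TruSeq RNA libraries, per the labels). Per the submitters' processing notes, TopHat2 2.0.13, Bowtie2 2.2.3.0, SAMtools and DESeq2 1.10.1 were used with build mm9; the read counter, strand setting and annotation are not given in the sources used here. For each day the authors deposited 1 table with variance-stabilised log2 values of each library, a mean signal per gene (mean normalised count), a log2 fold change of knockdown over scrambled with its standard error, a score that is their ratio, and p-values. The authors' comparisons were not used. No per-library column was left unused (0).

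Each table was transformed separately, with a lowest value of 6.94 at day 2 and 5.74 at day 4, so the transformation was inverted. Among values up to 100 reads, all of those recovered (100%) were whole to within 0.02 reads. The 8 libraries of days 2 and 4 were rescaled together by median of ratios. The 37 mitochondrial genes listed held 0 reads. Replicates were not copies of each other (Spearman correlations 0.974 to 0.993).

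The test was limma 3.58.1 (R 4.3.3, statmod 1.5.0) with trend and robust estimation on log2(normalised reads + 1), with 4 group means over 8 libraries and 4 residual degrees of freedom, adjusted by Benjamini-Hochberg. The main test kept to the log2 scale, the unit of the deposit. Count models were not used, although whole reads could be recovered. The pseudocount understates the change of low genes. Scripts (Python 3.11.15, numpy 2.4.6, pandas 2.3.3) were tested on simulated data. Alternatives were other libraries in the fit, pseudocounts of 0.5 and 5, no filter and a filter at 50, other scalings, voom, the replicate block, a 2-fold minimum and leaving out each library.

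Members and gene lists were chosen with earlier results of these data known. Genes were named by a rule: the 12 largest changes per direction among called, non-overlapping genes of at least median level (579 normalised reads) with an established name, the members of each list with the lowest adjusted p, at most 4, and 9 chosen genes. Some genes under this rule are not reported here. Adrb3, Apoe, C4a, C4b, Lama2, Lep, Mgst1, Nr1d2, Nr4a3, Pde10a, Rgs2, Rora, Sgk1, Sik1 and Sparc were named after their values were seen. Symbols come from the deposited tables. List members absent from them (Ebf1, Hilpda, Gk, Ndufb8, Hmgcs1, Pde4d, Noc2l, C5, Ciart, Runx2) were not analysed here.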

Additional observations from a re-analysis of the deposited data

How the results depend on the processing

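The count of genes called between day 4 and day 2 (1213) depended on which libraries gave the spread. It was 14 with the 4 scrambled libraries alone, 78 with the 10 scrambled libraries of all days, 746 with no trend and no robust estimation, and 592 with a change of at least 2-fold asked. Leaving out 1 of the 8 libraries gave 50 to 3252. It was 50 without scrambled day 2 library 1, 77 without scrambled day 2 library 2, 552 and 534 without knockdown day 2 libraries 1 and 2, 410 and 428 without knockdown day 4 libraries 1 and 2, 3252 without scrambled day 4 library 1 and 1173 without scrambled day 4 library 2. Of the 1173, 799 were among the 1213. Both pseudocounts, both filters, scaling to totals, quantile normalization, voom and a fit of all 20 libraries gave 928 to 1211. In the fit of 20 libraries 62.0% of calls were higher at day 4.

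With the replicate block 3449 genes passed (1698 higher, 1751 lower), all 1213 among them. Libraries with the same number departed from their group means together, with correlations over genes of 0.332 to 0.515 between groups. The labels name no shared culture or day, and 2 numbers are too few to take them as pairs from the data. Of the 21 genes named that were not called, 14 were called with the replicate block, among them Pparg, Cebpb and Cebpd (adjusted p = 0.0491, 0.00293 and 0.0339). The difference between the arms was called for 1 gene with the replicate block, for 0 to 67 genes when 1 library was left out, and for 0 under every other alternative run.

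Of the genes named, Cebpa, Dlk1, Mki67 and Tpi1 turned direction with 1 library left out, none of them called. Over the fits without 1 library the log2 changes were -0.53 to 1.35 for Cebpa, -0.0022 to 0.69 for Dlk1, -0.60 to 0.15 for Mki67 and -0.10 to 1.44 for Tpi1, with the turned values without day 4 library 1 for Dlk1 and without day 4 library 2 for the other genes. The causes were not tested. With 2 libraries a group, genes with a few reads are known only roughly, and a zero allows up to 3 reads.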

Other observations

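Genes of the circadian clock, of detoxification and of complement also changed between day 2 and day 4. Of the circadian clock list 5 of 17 rose and 1 fell, with a median log2 change of 0.76. Tef, a clock output factor of the PAR bZIP family, had 3414 and 3343 normalised reads at day 4, against 1786 and 1863 at day 2 (log2 change 0.89, SE 0.110, adjusted p = 0.0103). Nfil3, which binds the same sites as a repressor, had 857 and 1304 at day 4, against 2882 and 2665 at day 2 (log2 change -1.39, adjusted p = 0.0143). The activator was thus higher and the repressor lower at day 4, in both libraries. Cry2 rose by 0.91, Per3 by 1.68, Nr1d2 by 0.76 and Rora by 1.48. The list had 9 called higher and 1 lower without day 4 library 1, and 5 and 1 without day 4 library 2.

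Of the antioxidant and detoxification genes 4 of 23 rose and 1 fell (median 0.49). Aldh1a1, a retinaldehyde dehydrogenase, had 452 and 599 normalised reads at day 4, against 70.4 and 83.5 at day 2 (log2 change 2.75, adjusted p = 0.00808). Gclc, which limits glutathione synthesis, had 692 and 639 at day 4, against 1734 and 1816 at day 2 (log2 change -1.42, adjusted p = 0.0108). The glutathione transferases Gstm1 and Mgst1 rose by 1.08 and 0.75, and the haem oxygenase Hmox1 by 1.41 (adjusted p = 0.0245, and 0.0554 without day 4 library 2). Leaving out day 4 library 1 gave 8 called higher and 2 lower, and leaving out day 4 library 2 gave 5 and 1.

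Of the complement components 3 of 11 rose and 3 fell (median 0.01). Beside Cfd, the classical pathway proteases C1s and C1ra rose by 1.54 and 1.42, and C1s had 2862 and 1650.1 normalised reads at day 4, against 827 and 677 at day 2. Masp1, a protease of the lectin pathway, fell by 1.24 (adjusted p = 0.0314, and 0.0563 without day 4 library 2). C4b and C4a were also called lower, but they are near-identical copies whose reads the counting could split, so each is uncertain, and the call of C4a ended without day 4 library 1 (adjusted p = 0.0759). The complement list had 4 called higher and 3 lower without day 4 library 1, and 3 and 2 without day 4 library 2.

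In insulin signalling and glucose uptake 1 of 19 rose and 0 fell (median 0.11). It was Irs1, an adaptor of the insulin receptor, with 2808 and 2267 normalised reads at day 4, against 1277 and 1120.0 at day 2 (log2 change 1.08, adjusted p = 0.0188). Irs2, its paralog, had 1001 and 1817 at day 4, against 2098 and 2443 at day 2 (log2 change -0.75, adjusted p = 0.157). The insulin list had 9 called higher and 0 lower without day 4 library 1, and 2 and 4 without day 4 library 2. Of the brown and beige adipocyte markers 0 of 7 were called higher and 1 lower, while 5 of 7 log2 changes were positive and 2 negative (median 0.67). Ppargc1a, which was not called, had 140 and 241 at day 4, against 81.6 and 125 at day 2. Dio2, the deiodinase that activates thyroid hormone, had 5.78 and 8.19 at day 4, against 47 and 43.9 at day 2 (log2 change -2.56, adjusted p = 0.0104). The brown and beige list had 1 called higher and 1 lower without day 4 library 1, and 0 and 1 without day 4 library 2.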
